A study of Mus musculus with 55 samples.

Results

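Neurotrophins and the GDNF family of ligands are secreted factors that keep neurons alive, and the genes followed here are Bdnf, Ntf3 and Gdnf among the ligands and Ngfr, Ntrk2 and Gfra1 among the receptors, in the optic nerve head (ONH) of the mouse after optic nerve crush. The genes were chosen by name and each was read from every probe set that the array annotation assigns to it alone. This gave 10 of the 20380 single-gene probe sets on the array, for 5 of the 6 genes. No probe set names Ntf3 alone, so Ntf3 was not analysed here.

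All mice were female C57Bl/6, 6 to 8 weeks old at surgery. The left optic nerve was crushed for 10 s at 1 mm behind the eye, and the unoperated right side gave the contralateral ONH of the same animals. Crushed and contralateral ONHs were collected at 5 times, which were 1 and 3 days, 1 and 3 weeks and 3 months, and naïve ONHs came from mice without surgery. Each of the 11 groups had 5 samples, each sample pooled 2 ONHs, and each was hybridised to 1 Affymetrix 430A 2.0 array. The 10 arrays at 3 months form a batch of their own and were not compared with the other 45. The tissue, which took in the start of the myelinated nerve and was freed of its sheath, is a mixture of astrocytes, microglia, oligodendrocytes and ganglion cell axons, among other cells. In whole tissue, a change in the number of cells of a type and a change in the RNA per cell cannot be told apart.

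The values are array intensities on a linear scale. Array medians ranged from 459 to 554 for the 45 arrays and from 494 to 598 for the 10 at 3 months. Astrocyte markers were high in the naïve samples, with Gfap, the intermediate filament of astrocytes, at 9727 ± 928 (SD, n = 5) and Aqp4, their water channel, at 7719 ± 562 (SD, n = 5). Photoreceptor markers, which do not belong to the ONH, varied widely within every group. Their mean log2 level over 9 of 11 listed genes ran from 5.87 to 12.65 in the 5 naïve samples. Markers of meningeal fibroblasts ran from 12.60 to 13.04 there and those of pigment cells from 10.35 to 11.11, beside 11.87 to 12.10 for astrocyte markers.

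Neurotrophins act through a pair of receptor types. Trk receptors are tyrosine kinases that promote survival and growth, TrkB (Ntrk2) being the receptor of BDNF. The p75 neurotrophin receptor (Ngfr) is a member of the TNF receptor superfamily that binds all neurotrophins and, with sortilin, their uncleaved precursors. GDNF binds the membrane-anchored coreceptor GFRα1 (Gfra1), which passes the signal on through the kinase Ret or the adhesion molecule NCAM. In the optic nerve, retinal ganglion cells depend on BDNF carried along their axons, and glia express truncated TrkB and can make GDNF.

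Of the genes, 4 passed the threshold in at least 1 crushed group, and the 250 bases before the first listed transcript start are shown for each of them, less any that lie inside the annotated gene, so that the 2 ligands that rose can be read beside the 2 receptors that fell. The sequences come from RefSeq on GRCm38.p6 and are written in the direction of the gene. Capitals mark matches on either strand to the AP-1 motif TGANTCA, the CRE motif TGACGTCA, the GC box GGGCGG and the TATA box TATAAA, none of which overlapped another in these windows. Of all 32851 promoter windows of this length, 6.75% held the AP-1 letters, 1.55% the CRE letters, 32.7% a GC box and 12.4% a TATA box.
Gdnf, the first of 2 listed starts, chr15:7809798-7810047, plus strand: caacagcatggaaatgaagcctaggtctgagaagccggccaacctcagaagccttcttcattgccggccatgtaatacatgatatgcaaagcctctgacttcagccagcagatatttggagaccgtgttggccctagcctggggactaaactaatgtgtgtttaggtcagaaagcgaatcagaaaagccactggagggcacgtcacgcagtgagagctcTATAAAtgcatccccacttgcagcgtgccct
Bdnf, the first of 7 listed starts, chr2:109674450-109674699, plus strand: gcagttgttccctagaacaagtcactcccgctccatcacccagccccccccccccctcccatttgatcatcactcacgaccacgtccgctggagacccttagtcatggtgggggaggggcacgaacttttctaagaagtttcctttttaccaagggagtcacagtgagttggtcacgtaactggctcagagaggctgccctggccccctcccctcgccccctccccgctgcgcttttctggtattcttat
Ngfr, chr11:95587699-95587948, minus strand: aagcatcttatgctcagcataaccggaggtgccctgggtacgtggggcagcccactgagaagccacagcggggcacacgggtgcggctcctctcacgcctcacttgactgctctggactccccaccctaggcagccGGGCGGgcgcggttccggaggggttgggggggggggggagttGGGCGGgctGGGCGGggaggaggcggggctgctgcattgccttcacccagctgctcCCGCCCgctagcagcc
Ntrk2, 153 bases, chr13:58806319-58806471, plus strand: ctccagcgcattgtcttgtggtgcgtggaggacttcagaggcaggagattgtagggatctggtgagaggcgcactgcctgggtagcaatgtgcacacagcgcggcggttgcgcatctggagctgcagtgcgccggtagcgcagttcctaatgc
The Gdnf window held 1 TATA box match close to the start, and the window of its other start held none of the 4 motifs. The Ngfr window held 4 GC box matches. The Bdnf window shown held no match, nor did 4 of the windows of its 6 other starts, while that of the second start held 1 AP-1 and 2 GC box matches and that of the fourth 1 GC box match. The full Ntrk2 window, of which 97 bases lie inside the annotated gene and are not shown, held no match. The arrays do not tell which start was used.

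The first comparison asked how the crushed ONH differed from the contralateral ONH of the same mice at each time. A gene was called when limma gave a Benjamini-Hochberg adjusted p under 0.05 over all probe sets tested and a change of at least 2-fold, with its brightest single-gene probe set standing for the gene. At 1 day Gdnf and Bdnf rose and Ntrk2 fell. That is 2 of 5 members called higher, where 6.87% of all 10763 genes tested were, and 1 of 5 called lower, where 8.2% were. A probe set was tested only if at least 5 arrays of the model reached 50, and Bdnf met this through the crushed arrays. From 1 day to 3 weeks 4, 3, 5 and 3 crushed arrays reached 50 for Bdnf, against 0, 1, 1 and 1 contralateral ones. Its calls at 1 day and 1 week are therefore not independent of that filter. At 3 days Gdnf rose and Ngfr fell, against a background of 7% higher and 2.47% lower. At 1 week Bdnf rose and Ngfr and Ntrk2 fell, against 6.53% higher and 3.92% lower. No member was called at 3 weeks, where 2.76% of genes were called higher and 1.77% lower, although 4 of 5 had an adjusted p under 0.05 with a change below 2-fold. None was called at 3 months, where 0.506% of 10468 genes were. At an unadjusted limma p under 0.05 the counts of those last 2 times were 4 and 3 of 5. Of all probe sets tested, 6551 of 19313 and 2649 of 18823 were under it. The 3 criteria of the study's methods called no member at those times. Those criteria also called none at 1 week, and kept 1 member at 1 day (Gdnf) and 1 at 3 days (Ngfr). The median log2 difference of the 5 members was 0.70 at 1 day, 0.20 at 3 days, -0.03 at 1 week, -0.66 at 3 weeks and -0.25 at 3 months, beside medians of all genes between -0.04 and 0.04.

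**Figure D1:**
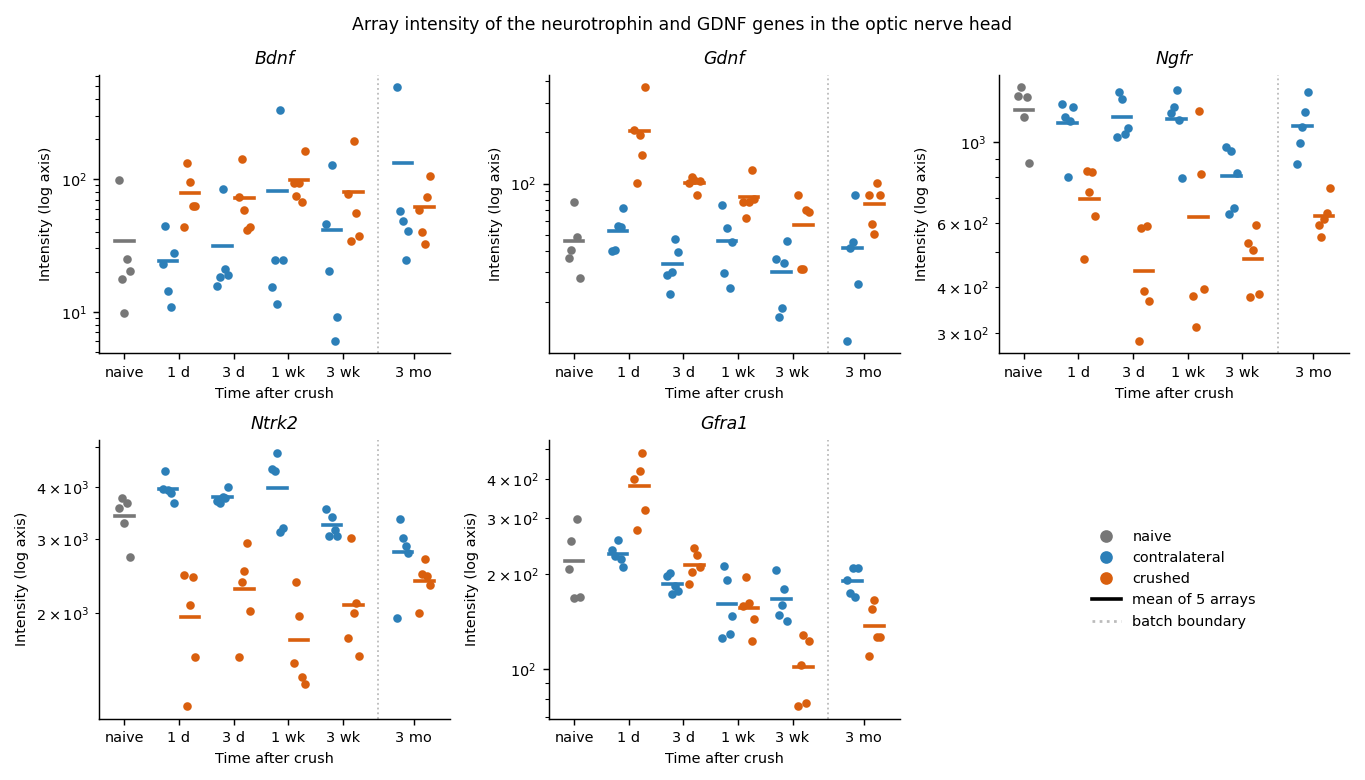
Intensity (log axis) of the brightest probe set of each gene in every sample, with naïve samples in grey, contralateral samples in blue and crushed samples in orange, and a bar at the mean of 5 arrays. The dotted line separates the 2 batches. Crushed Gdnf lies above contralateral Gdnf without overlap at 1 and 3 days, and crushed Ntrk2 lies below contralateral Ntrk2 without overlap from 1 day to 3 weeks.

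Gdnf, the glial cell line-derived neurotrophic factor, lies at chr15:7810048-7837580 (GRCm38.p6) and was read by 1 probe set. It was dim in uninjured tissue, at 36.4, 40.6, 78.1, 48.1 and 27.6 in the naïve samples. At 1 day the contralateral samples read 40.2, 40.4, 56.6, 55.2 and 72.1 and the crushed samples of the same mice 206, 100, 192, 147 and 370. Every crushed sample was above every contralateral one. The difference was 3.58-fold, or 1.84 on the log2 scale (SE 0.25, limma adjusted p = 4.23e-06), and it was higher in 5 of 5 pairs.

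At 3 days crushed Gdnf read 100, 109, 105, 85.2 and 103, against 28.7, 22.5, 30.2, 47.3 and 39.3 on the contralateral side. The groups again did not overlap, and the crushed samples spread far less than at 1 day, with an SD of 9.13 against 102. The log2 difference was 1.62 (SE 0.25, limma adjusted p = 3.63e-05), higher in 5 of 5 pairs. No Gdnf reading of either group was down at the floor set before taking logarithms, so the floor left this difference unchanged. On another scale, log2(intensity + 50), which shrinks differences between dim readings, it was 0.85 and so below 2-fold.

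From 1 week on Gdnf was higher in 5 of 5 pairs at each time, and below 2-fold on values floored before taking logarithms. The contralateral readings of 16.4 and 18.6 at 3 weeks and 11.9 at 3 months lay below that floor. The floor therefore understates the differences at 3 weeks and 3 months. Whether they stay below 2-fold without it was not tested. At 1 week crushed samples read 77.7, 62.9, 77.6, 120 and 80.9 and contralateral samples 74.5, 29.7, 54.7, 24.3 and 45.2. The groups overlapped through the second crushed and the first contralateral sample. The log2 difference was 0.96 (SE 0.25, limma adjusted p = 0.00472), and it was over 2-fold without replicate 1 (1.18) or replicate 3 (1.07). At 3 weeks crushed samples read 85.1, 31.2, 31.4, 69.7 and 68.2, against 36.0, 16.4, 18.6, 33.9 and 46.0, a log2 difference of 0.83 (SE 0.25, limma adjusted p = 0.0233). At 3 months the crushed samples lay between 50.3 and 101 and the contralateral ones between 11.9 and 85.1, with a log2 difference of 0.94 (SE 0.36, limma adjusted p = 0.324) in a model of 10 arrays.

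The crush effect on Gdnf was smaller at 3 weeks than at 1 day by 1.01 on the log2 scale (contrast -1.01, SE 0.36, limma adjusted p = 0.0325), where 5.66% of all genes had a contrast called lower. The floor enlarged this contrast, since 2 contralateral readings at 3 weeks lay below it and no reading at 1 day did. The call rested on few samples. It was lost without replicate 1 (-0.99, adjusted p = 0.0732), replicate 2 (-1.10, adjusted p = 0.0503), replicate 3 (-0.99, adjusted p = 0.0837) or replicate 5 (-0.82, adjusted p = 0.153), and without the pairing (adjusted p = 0.0713). Between 3 days and 1 week the contrast was -0.67 (SE 0.36, limma adjusted p = 0.259), and without replicate 4 it was -1.19 (adjusted p = 0.0251).

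Bdnf, the brain-derived neurotrophic factor and ligand of TrkB, lies at chr2:109674700-109727043 and was read by 2 probe sets, of which the brighter is described unless the other is named. It was near the lower end of the scale, with 11 of 55 arrays at or below the floor of 20 that was set before taking logarithms. All 11 were naïve or contralateral arrays from 1 day to 3 weeks, so that the floor understates the crush differences at those times but not the one at 3 months. Naïve samples read 98.4, 17.8, 9.86, 24.9 and 20.2. At 1 day the contralateral samples read 22.7, 44.2, 14.3, 11.0 and 27.8 and the crushed samples 43.6, 131, 94.3, 62.5 and 63.1. All 5 pairs were higher on the crushed side, and the groups met only at 43.6 crushed and 44.2 contralateral. The log2 difference was 1.51 (SE 0.51, limma adjusted p = 0.0156). It was 1.33 (adjusted p = 0.0600) without replicate 3, 0.59 (adjusted p = 0.200) with a floor of 50 and 0.78 (adjusted p = 0.0398) with log2(intensity + 50), which ends the call in each case. The dimmer probe set gave 0.67 (SE 0.32, limma adjusted p = 0.0814), higher in 5 of 5 pairs and without overlap. All its readings at 1 day were below 50, from 33.7 to 42.1 crushed and from 16.7 to 30.6 contralateral. It too met the filter through crushed arrays. From 1 day to 3 weeks 0, 1, 4 and 1 crushed arrays of this probe set reached 50, against 0, 0, 1 and 1 contralateral ones.

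At 3 days crushed Bdnf read 73.5, 141, 58.0, 41.3 and 43.6, and contralateral Bdnf 15.6, 18.2, 83.5, 21.0 and 18.8. One contralateral sample, replicate 3, stood above 4 of the crushed ones. The log2 difference was 1.25 (SE 0.51, limma adjusted p = 0.0537), and 1.70 (adjusted p = 0.0177) without that pair. At 1 week crushed samples read 93.9, 74.6, 93.7, 66.7 and 163 and contralateral samples 15.2, 24.5, 11.5, 333 and 24.5. Contralateral replicate 4 was above every crushed sample, and the other 4 were below all of them.

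The log2 difference at 1 week was 1.29 (SE 0.51, limma adjusted p = 0.0448). Without replicate 4 it was 2.20 (adjusted p = 7.22e-05), and leaving out any other replicate ended the call, with values from 0.94 to 1.22. It also ended in 9 of 11 other settings tried, among them a model that leaves out the pairing (adjusted p = 0.0732), quantile scaling (1.15, adjusted p = 0.0621) and the dimmer probe set (0.98, adjusted p = 0.0163, below 2-fold). At 3 weeks the difference was 0.90 (SE 0.51, limma adjusted p = 0.224), with 5 of 5 pairs higher, and the dimmer probe set gave -0.21 (SE 0.32). At 3 months it was -0.25 (SE 0.66, limma adjusted p = 0.873) with a 95% interval from -1.80 to 1.31. One contralateral sample at 3 months, replicate 1, read 492, against 24.4 to 57.5 in the other 4.

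The high contralateral and naïve readings of Bdnf fell in samples with high photoreceptor markers. The mean log2 level of those markers was 12.65 in naïve replicate 1, 12.39 in contralateral replicate 3 at 3 days, 12.80 in contralateral replicate 4 at 1 week and 13.28 in contralateral replicate 1 at 3 months. It was 11.86 in contralateral replicate 3 at 3 weeks, with Bdnf at 127. Other samples did not follow. Contralateral replicate 2 at 3 months had a level of 11.55 with Bdnf at 57.5. Crushed replicate 2 at 1 day had the lowest level of its group, 5.03, with Bdnf at 131. Across samples Bdnf and this level had a Pearson r of 0.68 over 25 arrays (naïve ones and contralateral ones up to 3 weeks), 0.56 over all 45 arrays up to 3 weeks and 0.74 over the 10 at 3 months, given as a description of arrays that share mice and a batch. None of the 9 photoreceptor markers tested was called between crushed and contralateral samples at 1 day or 1 week, with 0 at an unadjusted limma p under 0.05. At 1 day their level ran from 5.46 to 9.20 in contralateral and from 5.03 to 11.84 in crushed samples. At 1 week it ran from 5.41 to 12.80 and from 5.43 to 11.95. With such spread in groups of 5, these tests cannot show that the sides were alike in photoreceptor signal. The median log2 difference of the markers, crushed over contralateral, was 1.60 on day 1 and 0.98 on day 3. After 1 week it was -0.41 and after 3 weeks 0.47. Over the 7 markers tested in the batch of 3 months it was -2.14. With the level as a covariate the Bdnf difference was 1.23 (SE 0.46, limma adjusted p = 0.0303) at 1 day, 1.10 (adjusted p = 0.0579) at 3 days, 1.35 (adjusted p = 0.0192) at 1 week and 0.31 (adjusted p = 0.825) at 3 months.

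**Figure D2:**
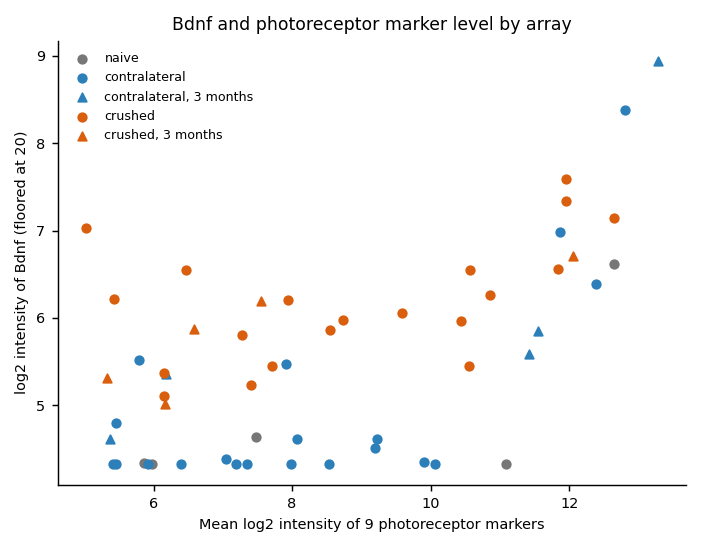
log2 intensity of Bdnf (floored at 20) against the mean log2 intensity of 9 photoreceptor markers in each of the 55 arrays, with circles for the first batch and triangles for 3 months. The 4 naïve and contralateral arrays with a marker level from 12.39 to 13.28 lie above the floor, up to a Bdnf level of 8.94 at 3 months.

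Ngfr, the p75 neurotrophin receptor, lies at chr11:95568818-95587698 and was read by 3 probe sets. One of them never reached 50 and was not tested. The brightest read 1331, 1410, 1165, 1326 and 874 in the naïve samples. At 1 day contralateral samples read 1269, 1165, 799, 1141 and 1248 and crushed samples 478, 831, 729, 828 and 628. The groups overlapped through contralateral replicate 3, and the log2 difference was -0.70 (SE 0.22, limma adjusted p = 0.0109), lower in 5 of 5 pairs but less than 2-fold.

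At 3 days crushed Ngfr read 286, 580, 390, 590 and 368 and contralateral Ngfr 1032, 1369, 1307, 1053 and 1089. No crushed sample reached the contralateral range, and Ngfr fell 2.73-fold, or by 1.45 on the log2 scale (SE 0.22, limma adjusted p = 2.51e-05). At 1 week the crushed samples split, at 378, 311, 1210, 814 and 396, against 1196, 1242, 1382, 1149 and 797. Crushed replicates 3 and 4 lay in the contralateral range. The log2 difference was -1.07 (SE 0.22, limma adjusted p = 0.000544), and it dropped below 2-fold without replicate 1 (-0.92) or replicate 2 (-0.84), with log2(intensity + 50) (-0.99) and with the mean of all probe sets of the gene (-0.76).

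At 3 weeks crushed Ngfr read 528, 376, 506, 592 and 383 and contralateral Ngfr 966, 635, 945, 660 and 824. The groups did not overlap, although the contralateral level was itself below that of earlier times, and the log2 difference was -0.76 (SE 0.22, limma adjusted p = 0.0168). At 3 months crushed samples read 593, 550, 613, 638 and 747 and contralateral samples 870, 991, 1100, 1205 and 1371. Again no value was shared, and the log2 difference of -0.81 (SE 0.13, n = 5 pairs) had a limma adjusted p of 0.0586, or 0.0161 without the pairing. By its brightest probe set Ngfr was lower on the crushed side in 5 of 5 pairs at each of the 5 times. The dimmer of the tested probe sets gave log2 differences of -0.71, -0.97, -1.17 and -0.63 from 1 day to 3 weeks. The one at 1 week was called (SE 0.27, limma adjusted p = 0.00143). At those times 2, 4, 4 and 1 contralateral arrays of this probe set reached 50, and 0 crushed ones. It met the filter through the contralateral arrays, so that call is not independent of the filter. In replicate 3 this probe set was higher on the crushed side at 1 day (log2 difference 0.33) and 3 weeks (0.37).

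Ntrk2, the TrkB receptor, lies at chr13:58806472-59133970. Its brighter probe set read 3574, 3759, 3290, 3673 and 2730 in the naïve samples. At 1 day contralateral samples read 3962, 4382, 3935, 3874 and 3656 and crushed samples 2473, 1201, 2090, 2442 and 1570. The groups lay far apart, and Ntrk2 fell 2.10-fold, by 1.07 on the log2 scale (SE 0.16, limma adjusted p = 9.17e-06). Without replicate 2, the lowest crushed sample, the difference was -0.87 and below 2-fold.

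At 3 days crushed Ntrk2 read 1568, 2371, 2515, 2949 and 2023, against 3706, 3674, 3781, 3772 and 4010, a log2 difference of -0.76 (SE 0.16, limma adjusted p = 0.000640). At 1 week it read 1521, 2374, 1970, 1404 and 1352, against 4426, 4377, 4839, 3124 and 3191, and fell 2.33-fold (log2 difference -1.22, SE 0.16, limma adjusted p = 3.75e-06). The groups did not overlap at either time. At 3 weeks the crushed values were 1749, 3017, 2000, 2120 and 1583 and the contralateral ones 3550, 3056, 3386, 3157 and 3051, with a log2 difference of -0.66 (SE 0.16, limma adjusted p = 0.00446). Crushed replicate 2 was just below its contralateral partner there. At 3 months the crushed samples lay between 1998 and 2693 and the contralateral ones between 1949 and 3356, and the difference was -0.21 (SE 0.11, limma adjusted p = 0.405) with a 95% interval from -0.46 to 0.04.

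The second probe set of Ntrk2 was dimmer. At 1 day it read 589, 749, 711, 692 and 605 in contralateral and 191, 109, 129, 192 and 58.5 in crushed samples, 5.35-fold lower (log2 difference -2.42, SE 0.25, limma adjusted p = 7.73e-08). The differences that followed were -1.32 at 3 days, -1.21 at 1 week, -0.99 at 3 weeks and -0.03 at 3 months. Its crush effect had lessened by 3 days (contrast 1.10, SE 0.35, limma adjusted p = 0.0373) and by 3 weeks (contrast 1.42, SE 0.35, limma adjusted p = 0.00306), while for the brighter probe set the same contrasts were 0.31 (adjusted p = 0.400) and 0.40 (adjusted p = 0.166). The difference between the probe sets was not tested. Ntrk2 gives rise to a full-length kinase receptor and truncated receptors without the kinase, and the files do not state which transcripts either probe set reads.

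**Figure D3:**
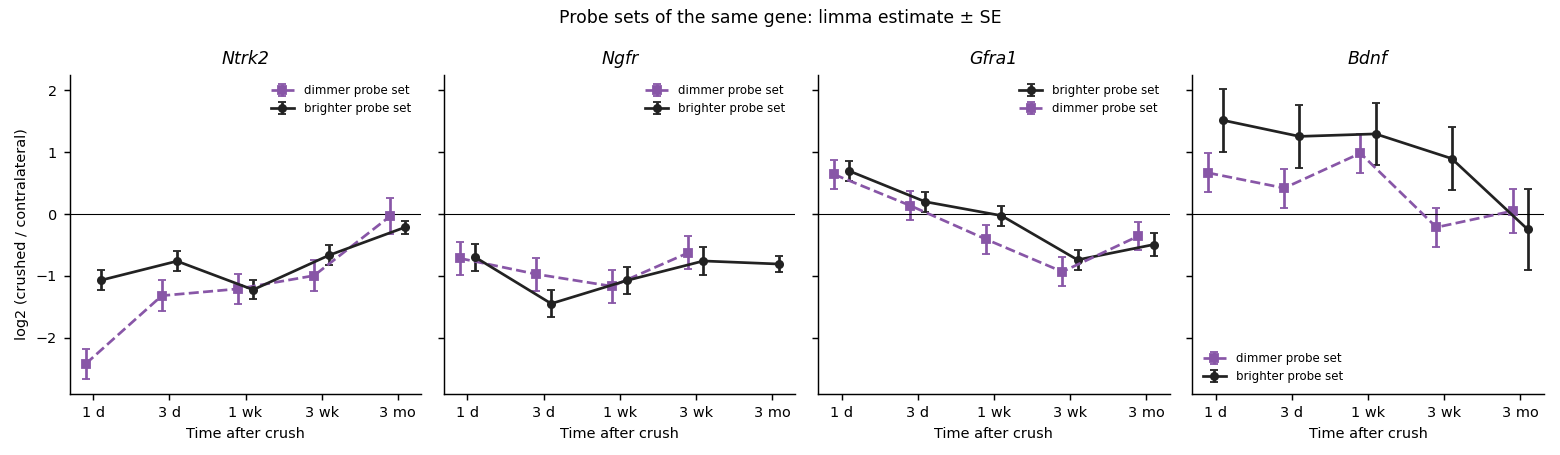
log2 difference between crushed and contralateral samples (limma estimate, bars ± SE) by time for the probe sets of Ntrk2, Ngfr, Gfra1 and Bdnf that were tested. The probe sets of Ntrk2 differ most at 1 day, at -2.42 and -1.07, and are alike at 1 week, at -1.21 and -1.22.

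Of 10 astrocyte markers, 3 were called lower at 1 day, where 8.2% of all genes were, and none at the later times. Their mean log2 level over 10 of 10 listed genes ran from 11.98 to 12.07 in contralateral and from 11.08 to 11.55 in crushed samples at 1 day, and from 11.94 to 12.15 and 11.39 to 11.83 at 1 week. The median log2 difference of the 10 was -0.50 at 1 day, -0.19 at 3 days, -0.34 at 1 week, -0.21 at 3 weeks and -0.17 at 3 months. The brighter Ntrk2 probe set and this level had a Pearson r of 0.89 over 45 arrays and 0.70 over the 25 uncrushed ones. For the dimmer probe set these were 0.87 and -0.06. The brighter one also had 0.87 and 0.42 with oligodendrocyte markers, and 0.66 and 0.69 with markers of oligodendrocyte precursors. Of 8 oligodendrocyte markers, 4 were called lower at 1 day, 1 at 3 days, 4 at 1 week, 2 at 3 weeks and 2 at 3 months. The part of either cell type in the Ntrk2 difference was not tested.

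For Ngfr, the markers of axons and ganglion cells had an r of 0.65 over 45 arrays and 0.73 over the 25 uncrushed ones. Other lists came as close, with 0.02 and 0.83 for endothelium and 0.55 and 0.70 for astrocytes. Microglia and macrophage markers had -0.75 and 0.11. The axon list also had an r of 0.63 and 0.24 with Gfra1. Of 8 axon and ganglion cell markers tested, none was called lower at 1 day, 3 at 3 days, 5 at 1 week, 6 at 3 weeks and 4 at 3 months. At most 2 of them were called higher at any time. Their level ran from 9.47 to 9.92 in contralateral and from 8.54 to 9.73 in crushed samples at 3 days. Ngfr is also made by Schwann cells, of whose 8 listed markers 3 have a probe set and of these Foxd3 stayed at or below 70.8 in every sample. The other 2 did not move together. Egr2 rose at 3 days by 2.28 (SE 0.30), while Erbb3 was at -0.25 (SE 0.23, limma adjusted p = 0.404) then and fell by 1.13 (SE 0.23) at 1 day and 1.04 (SE 0.23) at 3 weeks. The mean log2 level of the 3 ran from 7.62 to 8.34 in contralateral and from 8.56 to 8.70 in crushed samples at 3 days. The part of these cells in the Ngfr difference was not tested.

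Gfra1, the GDNF coreceptor, lies at chr19:58235581-58455946 and went from higher to lower. Its brighter probe set read 208, 255, 167, 298 and 169 in the naïve samples. At 1 day the contralateral samples read 237, 229, 256, 223 and 210 and the crushed samples 400, 276, 426, 486 and 319. The groups did not overlap, but the log2 difference of 0.70 (SE 0.16, limma adjusted p = 0.00115) was below 2-fold. At 3 days and 1 week the groups overlapped, with log2 differences of 0.20 (95% interval -0.14 to 0.54) and -0.03 (95% interval -0.37 to 0.31).

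At 3 weeks crushed Gfra1 read 76.2, 102, 128, 77.6 and 123 and contralateral Gfra1 206, 148, 159, 179 and 142. The order of the groups was now the opposite and again without overlap, with a log2 difference of -0.74 (SE 0.16, limma adjusted p = 0.00251), lower in 5 of 5 pairs. At 3 months the crushed samples, at 110, 154, 166, 126 and 126, were all below the contralateral ones, at 191, 174, 208, 169 and 209. The log2 difference there was -0.49 (SE 0.19, limma adjusted p = 0.321). The change of the crush effect from 1 day to 3 weeks was called, at -1.44 (SE 0.23, limma adjusted p = 6.54e-05), and kept the call without any 1 replicate (-1.59 to -1.21). The second probe set gave 0.64 at 1 day, -0.93 at 3 weeks and a contrast of -1.57 (SE 0.34, limma adjusted p = 0.00105). Of all genes, 13.4% had a called contrast between these 2 times.

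**Figure D4:**
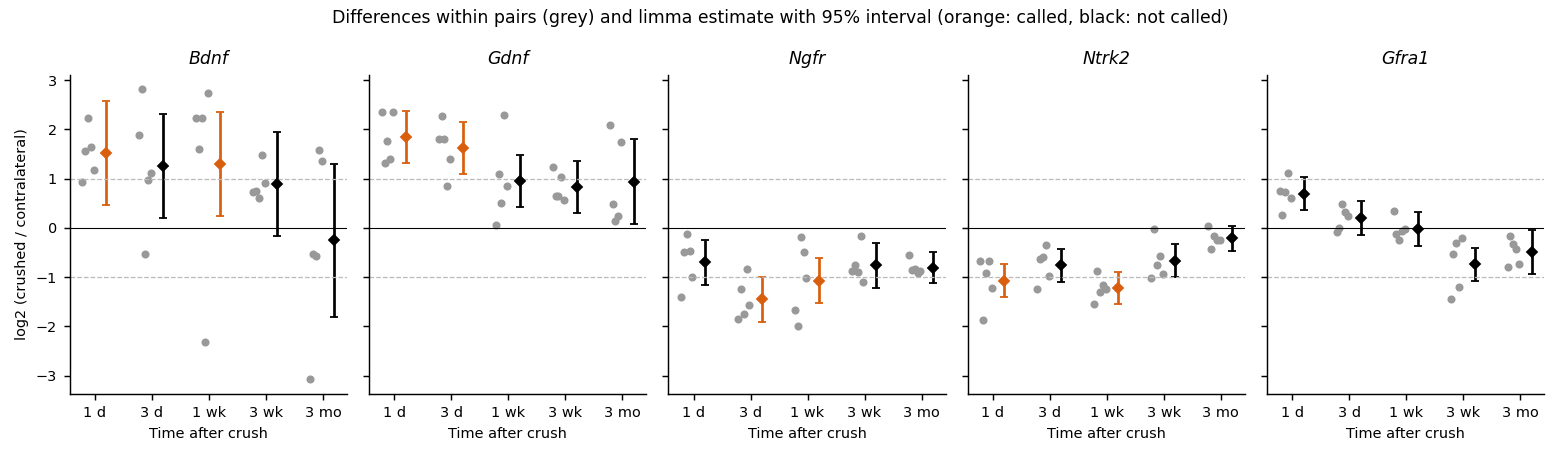
log2 of crushed over contralateral intensity of the brightest probe set in each of the 5 pairs (grey) by time, with dashed lines at 2-fold. Diamonds give the limma estimate with its 95% interval, orange where called. Gdnf is above 0 and Ngfr below 0 in every pair, Gfra1 passes from 0.70 at 1 day to -0.74 at 3 weeks, and the Bdnf pairs run from -2.32 to 2.73 at 1 week and from -3.07 to 1.59 at 3 months.

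Of the contrasts between other times, none of the 5 members passed between 1 and 3 days (5.62% of genes called), between 3 days and 1 week (3.2%) or between 1 and 3 weeks (4.8%) by the brightest probe set. At an unadjusted limma p under 0.05 the counts were 2, 0 and 2, beside 5452, 4864 and 5648 of all 19313 probe sets. For Gfra1 the contrast from 1 to 3 weeks was -0.71 (SE 0.23, limma adjusted p = 0.0410), below 2-fold.

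The second comparison asked whether the contralateral ONH differed from that of naïve mice. Of the members 4 were tested, since Bdnf was too dim in these 25 arrays, and none was called at 1 day (0% of 10440 genes called), 3 days (0%), 1 week (0.125%) or 3 weeks (0.67%). At an unadjusted limma p under 0.05 the counts were 1, 0, 2 and 2 of 4. Of all 18669 probe sets tested, 1268, 1036, 2689 and 5171 were under it. The 3 criteria of the methods called no member. Ngfr came closest, with contralateral samples at 3 weeks at 806 ± 155 (SD, n = 5) against 1221 ± 213 (SD, n = 5) in naïve samples. The ranges overlapped through the naïve sample at 874, and the log2 difference was -0.60 (SE 0.16, limma adjusted p = 0.0217), below 2-fold. Ntrk2 was at -0.06 (95% interval -0.27 to 0.14) at the same time.

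Of the 8 other receptors and coreceptors of neurotrophins tested, 7 were called lower at 1 day (8.2% of all genes), 3 at 3 days (2.47%), 2 at 1 week (3.92%) and none at 3 weeks or 3 months, and none was called higher. Their median log2 difference was -1.32 at 1 day, -0.48 at 3 days and -0.48 at 1 week, beside -0.04, 0.04 and -0.01 for all genes. With Ngfr and Ntrk2 included, 8, 4 and 4 of 10 were called lower at these times, and with arrays scaled by quantiles or to a common median 8, 4 and 5. Markers of other cells were also called lower at 1 day, with 3 of 6 mural markers (median -1.14), 4 of 8 oligodendrocyte markers (median -0.95), 3 of 10 astrocyte markers (median -0.50) and 2 of 8 meningeal fibroblast markers (median -0.52), and the part of these cells in the receptor differences was not tested. Ntrk3, the TrkC receptor of NT-3, fell by 2.45 on the log2 scale (SE 0.18, limma adjusted p = 1.14e-09) at 1 day and by 1.30 (SE 0.18) at 3 days, and its difference at 3 weeks stood 1.58 (SE 0.26, limma adjusted p = 7.25e-05) above that at 1 day. Sort1, sortilin, the partner of p75 for uncleaved neurotrophins, fell by 1.82 (SE 0.16) at 1 day, and its relatives Sorcs1 and Sorcs2 fell by 1.46 (SE 0.21) and 1.21 (SE 0.20).

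Lingo1 and Rtn4r, which form the Nogo receptor complex with p75, fell at 1 day, 3 days and 1 week. The log2 differences of Lingo1 were -1.34, -1.26 and -1.82 (SE 0.25 each) and those of Rtn4r -1.30, -1.44 and -1.48 (SE 0.21 each). Tnfrsf19, which can take the place of p75 in that complex, fell by 1.24 (SE 0.13, limma adjusted p = 9.76e-08) at 1 day and was at -0.03 at 3 days. At 3 weeks Rtn4r was at 0.85 (SE 0.21, limma adjusted p = 0.00676), below 2-fold, and its crush effect had changed by 2.16 (SE 0.30, limma adjusted p = 1.60e-05) since 1 day.

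None of the 6 GDNF family receptors and partners, Gfra1 included, was called at any time up to 3 weeks, nor any of the 5 tested at 3 months. At an unadjusted limma p under 0.05 the counts were 4 at 1 day, 2 at 3 days, 3 at 1 week, 2 at 3 weeks and 3 at 3 months. Such values were common among all probe sets, with 11313, 9281, 9530 and 6551 of 19313 from 1 day to 3 weeks. At 3 months they numbered 2649 of 18823. Ret, the signalling kinase, was at 0.28 (SE 0.33) at 1 day, and Gfra3, the coreceptor of artemin, at 0.87 (SE 0.49, limma adjusted p = 0.141). Gfra4, the coreceptor of persephin, was at -0.92 (SE 0.19, limma adjusted p = 0.000668) at 1 week. Of the 4 GDNF family ligands, 2 were bright enough to be tested, and Pspn, persephin, was at -0.83 (SE 0.21, limma adjusted p = 0.00224) at 1 day.

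**Figure D5:**
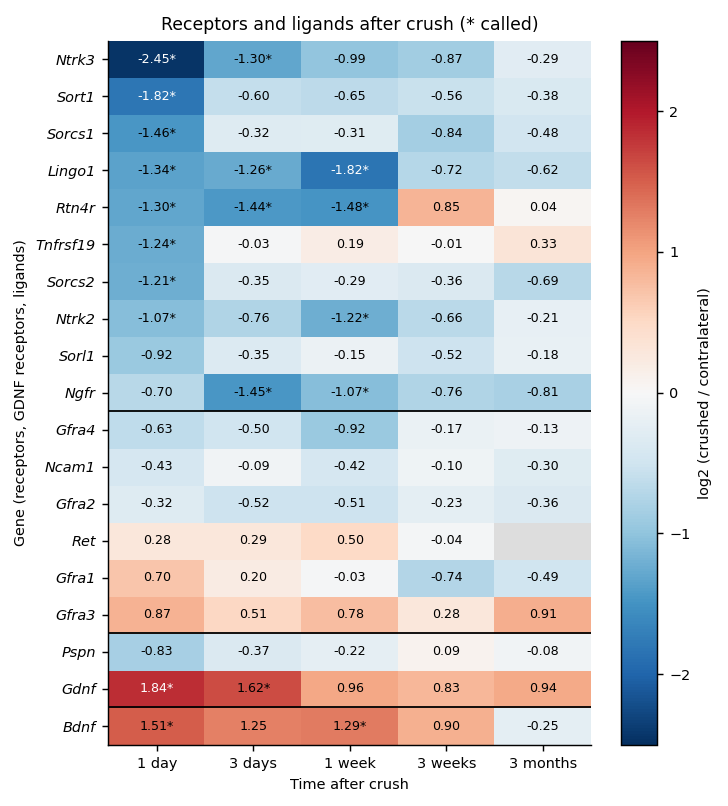
log2 difference between crushed and contralateral samples (colour and printed value) by gene and time, with a star where the gene was called, for the neurotrophin receptors and coreceptors (top), the GDNF family receptors, and the ligands (bottom). Grey marks a gene not tested. In the top block 8 of 10 genes carry a star at 1 day and none at 3 weeks.

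Proteases that process the precursors of neurotrophins moved in both directions. Of 10 tested, 2 were called higher and 2 lower at 1 day, where 6.87% and 8.2% of all genes were. Mmp3 and Mmp9, metalloproteinases that can cleave the precursors outside the cell, rose by 5.67 (SE 0.50, limma adjusted p = 1.32e-08) and 3.40 (SE 0.40) on the log2 scale at 1 day. At 3 days they rose by 1.81 and 3.14. At 1 week neither was called, at 0.82 (SE 0.50, limma adjusted p = 0.202) and 0.81 (SE 0.40, limma adjusted p = 0.111), and at 3 weeks Mmp3 was higher by 3.86 (SE 0.50, limma adjusted p = 2.12e-05) while Mmp9 was at -0.40. Pcsk6, a proprotein convertase, fell by 2.38 (SE 0.24) at 1 day and by 1.02 (SE 0.24) at 3 days, and Pcsk5, another, fell by 1.16 (SE 0.23) at 1 day and rose by 1.54 (SE 0.23) at 1 week and 2.04 (SE 0.23) at 3 weeks.

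Of 11 genes tested that Trk or Ret signalling is known to induce, 3 were called higher at 1 day (6.87% of all genes), 2 at 3 days (7%), 1 at 1 week (6.53%) and 2 at 3 weeks (2.76%), and none lower. Egr2, a zinc finger transcription factor that also marks Schwann cells, rose at 4 times, by 2.06, 2.28, 2.21 and 1.70 (SE 0.30 each) from 1 day to 3 weeks. Etv4, an ETS factor, rose by 1.12 (SE 0.38, limma adjusted p = 0.0174) at 1 day, 1.32 at 3 days and 1.24 at 3 weeks, and Spry4, a feedback inhibitor of receptor kinases, by 1.14 (SE 0.27, limma adjusted p = 0.00124) at 1 day. Etv4 and Spry4 were dim in naïve samples, with means of 33.9 and 32.6. Of this list 10 genes were tested between contralateral and naïve samples, against 11 in the crush model. At least 1 gene thus met the intensity filter only with the help of crushed arrays. A call of such a gene is not independent of that filter, and the counts called higher may depend on it. Among 19 adaptors, Sh2b2, which binds Trk receptors, rose by 1.41, 1.13 and 1.32 (SE 0.28 each) at 1 day, 3 days and 1 week, and Frs3, a docking protein of receptor kinases, fell by 1.05 (SE 0.14) at 3 days and 1.14 (SE 0.14) at 3 weeks. All the listed genes without the members numbered 54 tested, of which 6 were called higher and 9 lower at 1 day (6.87% and 8.2% of all genes), 5 and 5 at 3 days (7% and 2.47%), 3 and 2 at 1 week (6.53% and 3.92%), 4 and 1 at 3 weeks (2.76% and 1.77%) and none of 49 at 3 months. The shares at 1 week, of genes higher at 3 days and of genes lower at 3 weeks were near those of all genes.

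For each member, the genes whose log2 intensity followed it most closely over the 45 arrays of the first batch were sought among 10762 others, as a description of arrays that share mice and treatment. Gdnf was most like Il1b (Pearson r = 0.85), Akr1b8 (0.84) and Ppp4r1 (0.84). Il1b, the cytokine interleukin-1 beta, read 48.8 ± 12.8 in contralateral and 1719 ± 702 in crushed samples at 1 day (SD, n = 5). Bdnf was most like Sh3bgrl2 (0.89), Slco5a1 (0.86) and Impdh1 (0.84), and Ngfr like Ecel1 (0.86), Ccnd2 (0.84) and Wfs1 (0.82). Ntrk2 was most like Mapk10 (0.94), Morn4 (0.93) and Reep1 (0.93), and Gfra1 like Rabggta (0.87), Fgfrl1 (0.85) and Slc39a6 (0.85).

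Among the members themselves, the relation of ligand and receptor depended on which arrays were read. Gdnf and Gfra1 had an r of 0.39 over 45 arrays, 0.69 over the 20 crushed ones and 0.17 over the 25 uncrushed ones. Bdnf and Ntrk2 had an r of -0.60 over 45 arrays, -0.44 over the crushed and -0.17 over the uncrushed ones. Microglia and macrophage markers, of which 4 of 10 were called higher and 1 lower at 1 day, ran from a mean log2 level of 10.34 to 10.59 in contralateral and from 10.45 to 11.13 in crushed samples then. They had an r of 0.56 with Gdnf over 45 arrays and 0.26 over the uncrushed ones, and their part in the Gdnf difference was not tested.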

How the data were processed

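Messenger RNA of 55 ONH samples was measured on Affymetrix 430A 2.0 arrays. The deposited intensities are on a linear scale. For each of the 2 batches the authors had normalized arrays by invariant set in DChip and computed each intensity from the difference of matched and mismatched probes. The table holds 22690 probe sets, of which 64 array controls were left out. The annotation gave 1 gene for 20380 of the other 22626, several for 691 and none for 1555. Depth is not defined for arrays, and their number limits the precision.

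Intensities were floored at 20 and log2 transformed. Probe sets with at least 5 arrays at 50 or more were tested with lmFit and eBayes (trend on intensity) of limma 3.58.1 in R 4.3.3 with the data.table package, version 1.17.8, and Benjamini-Hochberg adjusted within a comparison. The 40 crushed and contralateral arrays up to 3 weeks entered 1 model with a crush term for each time, those at 3 months another, and 25 naïve and contralateral arrays an unpaired one. Replicate pairs, both eyes of the same 2 mice per the methods, were a fixed block in the crush models. Deviations from the group means correlated above 0.1 in 8 of 25 pairs (r from -0.45 to 0.52, median -0.04). A crushed sample correlated best with its own partner in 3 of 25 pairs. The pairing therefore rests on the methods and is not visible in the arrays themselves. A gene was represented by its single-gene probe set of highest mean intensity. The genes named were all members, the listed pathway genes called after crush (16 of 54), and the 3 genes most like each member. Genes outside this rule that are named (Ret, Gfra3, Gfra4, Pspn and markers) were chosen after their values were seen. Members and lists were chosen with earlier results of these data known. The models were tested on simulated data. Figures were drawn with pandas 2.3.3 and matplotlib 3.10.9, Python version 3.11.15. Promoter sequences and gene positions are from RefSeq (GRCm38.p6).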

Additional observations from a re-analysis of the deposited data

Results flagged for a closer look

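Within groups of 5, one sample stood apart by Dixon's criterion in 5 of 55 sets of values, where chance gives about 1 in 20. Of these, 4 concern Bdnf: naïve replicate 1 at 98.4, with a gap of 0.861 of the group's log2 range to the next sample at 24.9, contralateral replicate 3 at 3 days at 83.5 (0.968, next 20.9), contralateral replicate 4 at 1 week at 333 (0.928, next 24.5) and contralateral replicate 1 at 3 months at 492 (0.715, next 57.5). Their photoreceptor marker levels are given beside the Bdnf results. The log2 ranges use values floored at 20, which shortens the range and so enlarges the gap where samples lay below 20. For Bdnf 2 naïve samples were at the floor, and 3 contralateral ones at 3 days and 2 at 1 week, but none at 3 months. The fifth is Ngfr in contralateral replicate 3 at 1 day, at 799 with the next sample at 1141 (0.770).

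The crush effect differed between 1 day and 3 weeks by a tested contrast for Gdnf (-1.01, SE 0.36, limma adjusted p = 0.0325) and Gfra1 (-1.44, SE 0.23, limma adjusted p = 6.54e-05).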

How the results depend on the processing

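Of 220 recomputed counts of called members, 207 stayed within 1.5 times the count reported. With log2(intensity + 50) in place of the floor the counts were 1 (Ngfr) in place of 2 at 3 days, 1 (Ntrk2) in place of 3 at 1 week and 1 (Gfra1) in place of 2 for the change from 1 day to 3 weeks. Without the replicate block that last count was also 1, and the block changed no other count by more than 1.5 times. The 3 criteria of the methods called 1 member at 1 day (Gdnf), 1 at 3 days (Ngfr) and 0 at 1 week. Leaving out 1 replicate gave 1 to 3 members at 1 week (1 without replicate 2), 0 to 1 for the change from 3 days to 1 week (Gdnf without replicate 4) and 1 to 2 for that from 1 day to 3 weeks. For contralateral against naïve, the replicate block, whose number there is shared by different mice, left 0 called at every time.

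Of 604 recomputed values of single members 559 kept direction and side of the threshold. Directions turned where no call had been made: Bdnf by its dimmer probe set at 3 weeks (-0.21) and 3 months (0.050), Bdnf with the photoreceptor covariate at 3 months (0.31), Bdnf from 3 days to 1 week with quantile normalization (-0.026) and without single replicates (-0.64 to 0.87), Gfra1 at 1 week without replicate 3 (-0.12 to 0.030 over replicates) and Ngfr from 1 day to 3 weeks without replicate 3 (-0.21 to 0.12 over replicates). Low signal limits Bdnf and Gdnf, whose uninjured levels lie mostly under 50. The causes of these differences were not tested.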
